A study of Mus musculus with 20 samples.

Results

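The corneal crystallin Aldh3a1, its companion transketolase (Tkt) and 5 further aldehyde dehydrogenases (Aldh2, Aldh3a2, Aldh7a1, Aldh9a1 and Aldh3b1) were followed in mouse corneal epithelium at 4 ages. The 7 genes were picked by symbol from the 24552 genes of a table of 20 libraries, with no threshold on their values but with earlier results of these data known, and all 7 were among the 11288 genes that reached a mean normalized count of at least 10 and were tested. The epithelium was scraped from the corneas of untreated, wild-type female C57BL/6J mice, and each library holds both corneas of 1 animal. The 5 libraries of each age came from mice of 2 to 3 months (2-month, the young group), 12 to 13 months (12-month), 18 to 19 months (18-month) and 24 to 25 months (24-month). The mice were bought from the Jackson Laboratories, aged in house or supplied by the National Institute of Aging, and the labels do not say which library came from which source.

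Crystallins are proteins that a transparent tissue holds in very large amounts. In the lens they are dedicated structural proteins and relatives of heat shock proteins, whereas the cornea uses metabolic enzymes in that role. In the mouse these are mainly ALDH3A1, an aldehyde dehydrogenase that absorbs ultraviolet light and oxidizes the toxic aldehydes of lipid peroxidation, and TKT, an enzyme of the non-oxidative pentose phosphate pathway, the sugar pathway that yields ribose and, in its oxidative branch, NADPH. Aldehyde dehydrogenases attack the aldehyde with a cysteine in the active site and pass its electrons to NAD or NADP.

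On GRCm38, Aldh3a1 is at chr11:61208510-61218418 and Aldh3a2 is its neighbor at chr11:61223417-61267528. Tkt is at chr14:30549131-30574724, Aldh2 at chr5:121566027-121593824, Aldh9a1 at chr1:167349963-167368530 and Aldh3b1 at chr19:3913491-3930898. The coding sequence around the catalytic cysteine shows how the ALDH3 genes resemble each other and differ from the mitochondrial Aldh2 and the cytosolic Aldh9a1. The 36 bases of each gene are printed 5′ to 3′ on the coding strand, with the cysteine codon in capitals.

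Aldh3a1: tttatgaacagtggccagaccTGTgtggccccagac
Aldh3b1: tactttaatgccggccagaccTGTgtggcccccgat
Aldh3a2: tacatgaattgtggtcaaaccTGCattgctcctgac
Aldh2: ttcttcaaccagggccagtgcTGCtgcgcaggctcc
Aldh9a1: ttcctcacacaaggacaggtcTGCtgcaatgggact

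The Aldh3a1 stretch is at chr11:61215509-61215544 on the plus strand, in exon 6 of 11, and the cysteine is codon 244 of 453. The Aldh3b1 stretch (exon 7 of 10, codon 244 of 468) is at chr19:3918808-3918843 and the Aldh3a2 stretch (exon 5 of 10, codon 241 of 484) at chr11:61258804-61258839, both on the minus strand. That of Aldh2 is at chr5:121572790-121572825 on the minus strand (exon 9 of 13, codon 321 of 519), and that of Aldh9a1 crosses from exon 6 to exon 7 of 11 at chr1:167357433-167361420 on the plus strand (codon 312 of 518). Aldh3a1 shared 26 of the 36 bases with Aldh3b1 and 25 with Aldh3a2, but 18 with Aldh2 and 12 with Aldh9a1, whereas Aldh2 and Aldh9a1 shared 23 with each other. To see whether relatives of this kind could share reads, the last 500 bases of a transcript of each gene, where these libraries were primed, were cut into all 426 stretches of 75 bases, the length of a read. For each of the 7 genes, 0 of the 426 stretches occurred in a transcript of another gene.

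Each library held 6699383 to 10762360 reads assigned to genes, with a median of 8731333. These are the reads behind the deposited values and not all reads sequenced, and each share of reads is a share of them. The ribosomal precursor Rn45s took 10.1% to 23.4% of the reads of a library, and the highest share was that of 2-month replicate 1. This library was also the farthest from the mean of its age, with a median absolute difference over genes of 0.434 on the log2 scale, followed by 12-month replicate 5 (0.390). The 5 markers of corneal epithelium (Krt12, Krt5, Krt14, Pax6 and Cdh1) were all tested and 0 were called between ages, with a summed normalized count of 270495 to 367814. The epithelial sum was mostly Krt12, with a mean normalized count of 244427 beside 62617 for Krt5 and 5594 for Krt14. Krt14 was 0.689-fold at 12 against 2 months (limma adjusted p = 0.228) and 1.59-fold at 24 against 12 months (adjusted p = 0.0920). At 24 against 2 months it was 1.10-fold (limma adjusted p = 0.849). Markers of stromal keratocytes, the fibroblasts beneath the epithelium, moved with age: their summed count was 1764 to 4837 in the 2-month libraries, 692 to 1621 at 12 months, 679 to 1386 at 18 months and 329 to 1087 at 24 months, with Kera at 0 reads in 2, 1 and 2 of the libraries of the 3 older ages, respectively. Of the 9 keratocyte genes, 3, 4 and 6 were called lower at 12, 18 and 24 months than at 2 months. Of all 11288 tested genes, 34, 38 and 53 were called lower at these ages. The keratocyte counts ranged from 2 to 4, 2 to 6 and 5 to 7 with 1 library left out and were 2, 3 and 5 without 2-month replicate 1. The collagen genes Col1a1 and Col1a2 were called lower at all 3 ages in each of these 20 fits. The paper had already reported Col1a2, Col3a1, Col5a1, Col5a2, Col6a1 and Dcn as lower with age in these libraries. It also listed Col1a1 among its changed genes, so calls of these genes repeat a known result. Kera and Lum, the other markers, were lower at all 3 ages but not called (limma adjusted p of 0.0702 or more). Of the 3 conjunctival markers tested, 2, 2 and 1 were called lower: Krt4 at all 3 ages, also with any 1 library left out, and Krt19 at 12 and 18 months, where it was lost in 10 and 8 of the 20 fits, those without 2-month replicate 1 among them. Their summed count of 28433 to 49760 in the 2-month libraries overlapped the 24402 to 39976 of the older ones. This sum was mostly Krt13, which was not called, with a mean normalized count of 28029 beside 2586 for Krt4 and 902 for Krt19. For Krt4, all 15 older libraries were below every 2-month library, against 9 of 15 for Krt19 and 6 of 15 for Krt13. How many of all tested genes showed such a separation was not counted. In bulk RNA, fewer cells of a type and less RNA per cell cannot be told apart. Markers of corneal endothelium, leukocytes, melanocytes and vessels and early stress genes gave 0 calls in these comparisons, which does not show that they were unchanged. All 4 tested leukocyte genes were lower at 24 than at 2 months, and Cd74 was 0.361-fold at 12 months (limma adjusted p = 0.0562). Of the 6 stress genes, 4 were higher and 2 lower at 24 months, with Junb at 1.48-fold (limma adjusted p = 0.0773). Keratocytes also express Aldh3a1, Tkt and Aldh1a1, which were left out of the keratocyte list. Apart from correlations of Aldh3a1 and Tkt with Krt12 and the keratocyte sum within ages, the part of these markers and cells in the results below was not tested.

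Aldh3a1 ranked 6 of all genes by mean normalized count, behind Rn45s, Gsto1, Krt12, Malat1 and Krt6b. It gave 56726 to 148033 reads per library, which was 0.748% to 1.38% of the reads. In the 2-month libraries the share was 0.799%, 1.38%, 0.990%, 0.997% and 0.748% for replicates 1 to 5. The widest spread of any age was thus found in the young mice, whose replicates 2 and 5 were the highest and the lowest of the 20 libraries. The share was 1.17%, 0.847%, 0.906%, 1.01% and 1.18% at 12 months. It was 1.25%, 0.904%, 1.06%, 1.15% and 1.03% at 18 months and 1.15%, 1.16%, 1.01%, 1.24% and 1.29% at 24 months. The mean share went from 0.982% ± 0.247 (SD, n = 5) at 2 months to 1.02% ± 0.151, 1.08% ± 0.131 and 1.17% ± 0.106 at 12, 18 and 24 months, and each older age overlapped the young group.

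The transketolase Tkt ranked 33, with 11206 to 19395 reads per library. Its share was 0.226%, 0.178%, 0.164%, 0.166% and 0.141% in the 2-month libraries and 0.175%, 0.181%, 0.164%, 0.215% and 0.232% in the 12-month libraries. It was 0.167%, 0.171%, 0.169%, 0.162% and 0.136% at 18 months and 0.134%, 0.155%, 0.152%, 0.151% and 0.144% at 24 months. The 24-month libraries were close together and low, with a mean of 0.147% ± 0.00829 (SD, n = 5), where the younger groups had means of 0.175% ± 0.0315, 0.193% ± 0.0286 and 0.161% ± 0.0144 in order of age. The 3 highest Tkt shares were those of 12-month replicate 5, 2-month replicate 1 and 12-month replicate 4.

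**Figure D1:**
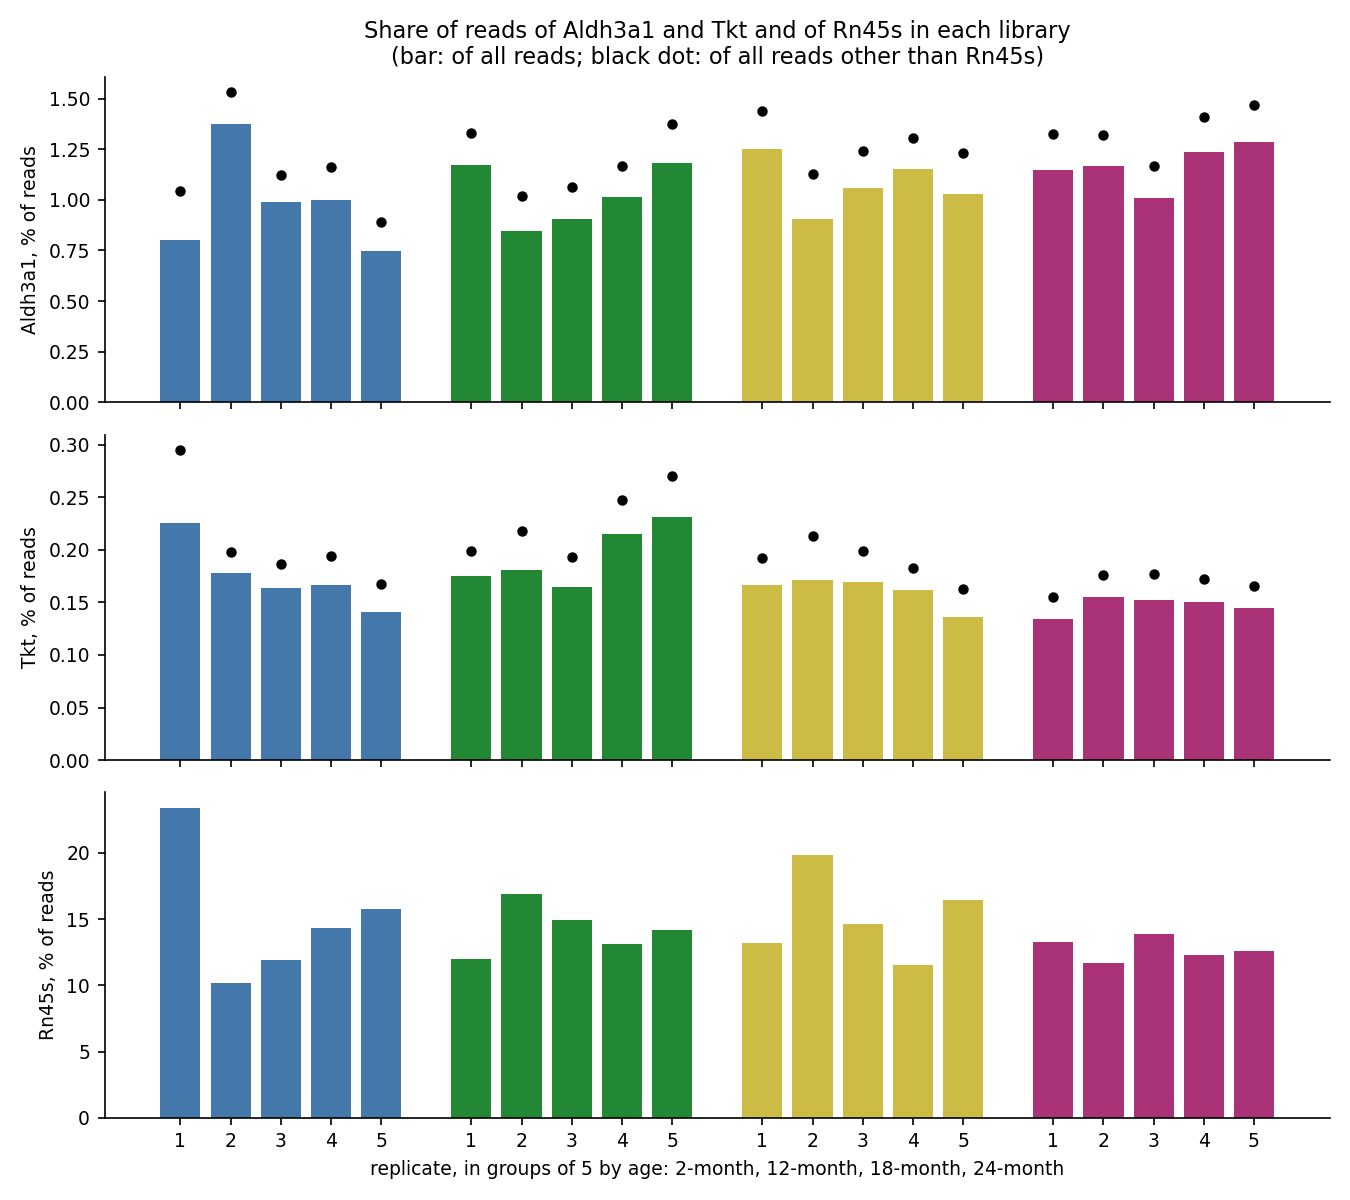
Share of reads (%) of Aldh3a1 (top), Tkt (middle) and the ribosomal precursor Rn45s (bottom) in each of the 20 libraries, in groups of 5 by age; bars give the share of all reads and black dots the share of reads other than Rn45s. Aldh3a1 lies between 0.748% and 1.38% and the 2-month libraries span this whole range, while Tkt is lowest and least spread in the 24-month libraries (mean 0.147%).

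The other 5 genes took far fewer reads. Aldh2 had a mean share of 0.00948% ± 0.00344, 0.0134% ± 0.00260, 0.0123% ± 0.00123 and 0.0120% ± 0.00213 (SD, n = 5) at 2, 12, 18 and 24 months, and Aldh9a1 had 0.00232% ± 0.000151, 0.00272% ± 0.000790, 0.00252% ± 0.000333 and 0.00204% ± 0.000536. The means of Aldh3a2 and Aldh7a1 were between 0.000483% and 0.00107% and those of Aldh3b1 between 0.000234% and 0.000390%. Together the 7 genes made up 1.17% ± 0.248, 1.23% ± 0.169, 1.26% ± 0.132 and 1.33% ± 0.103 of the reads at the 4 ages, and 76.6% to 89.1% of this was Aldh3a1. The reads come from the 3′ end of a transcript. The shares describe the libraries and were not used to rank the genes by transcript number.

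In 21 two-sided exact permutation tests of the share of all reads, 7 genes at each older age against the young group, 0 had an unadjusted p below 0.05, where 5 libraries against 5 allow 252 splits and a smallest p of 0.00794. The lowest value was 0.0635, reached by Tkt and by Aldh7a1 at 24 months. When Rn45s was left out of the total, the share of Tkt was 0.169% at 24 months and 0.208% at 2 months (means, n = 5, exact permutation p = 0.0317, 1 of 21 tests). Leaving out the 10 most abundant genes gave p = 0.0397 for the same comparison by the exact permutation test, and again 1 of 21. Without 2-month replicate 1 the mean share of reads other than Rn45s was 0.186% at 2 months (n = 4, exact permutation p = 0.0635), and the difference went from -0.0390 to -0.0173 percentage points. The total without the 10 most abundant genes then gave an exact permutation p of 0.0794, and all reads gave 0.127.

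To ask whether the genes changed with age beyond the spread between animals, the deposited log2 values were fitted with limma over all tested genes. A gene was called when its adjusted p was at most 0.05 and it differed by 1.2-fold or more in either direction. Of the 7 genes, 0 were called at 12 months against 2 months, where 0.532% of all tested genes were called, 0 at 18 months (0.673% of all) and 0 at 24 months (0.78% of all). Between the older ages, 0 of 7 were called at 24 against 12 months (0.195% of all), 0 at 18 against 12 months (0.00886% of all) and 0 at 24 against 18 months (0% of all, with 599 genes at an unadjusted p below 0.05). The 15 older libraries against the 5 young gave 0 of 7 (1.01% of all), and the test for any difference among the 4 ages also gave 0 of 7 (0.904% of all). At an unadjusted p below 0.05, 2, 1 and 1 of the 7 genes passed at 12, 18 and 24 months against the young group, where 9.56%, 7.18% and 9.97% of all tested genes did. The same count was 3 from 12 to 24 months, 1 from 12 to 18 months and 0 from 18 to 24 months (14.7%, 7.43% and 5.31% of all), as well as 1 for all older ages and 3 for any difference (7.89% and 11.4% of all). The median log2 fold change of the 7 genes was 0.16, 0.12 and 0.22 at 12, 18 and 24 months against 2 months, beside -0.01, -0.00 and 0.01 for all tested genes, and -0.21 at 24 against 12 months, beside 0.02.

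**Figure D2:**
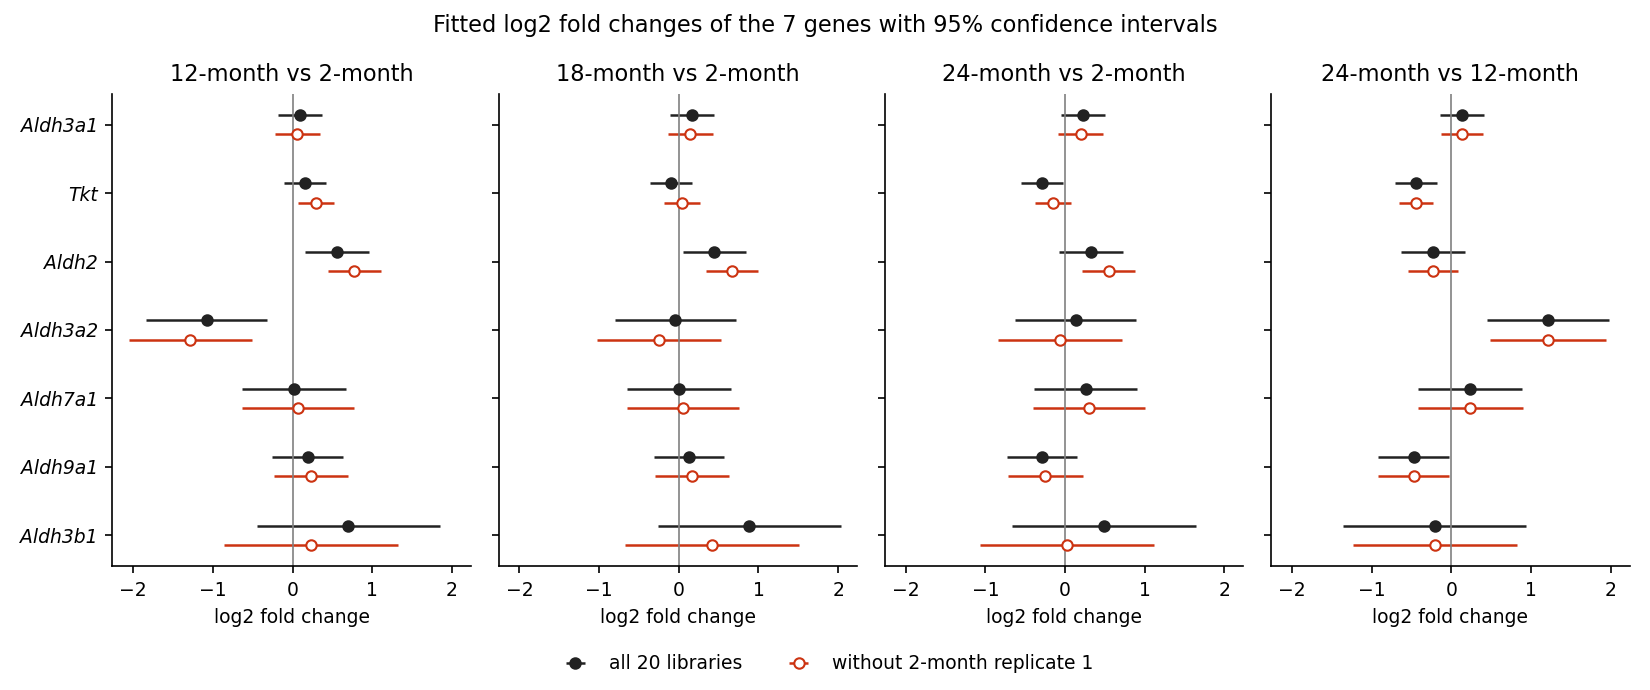
Fitted log2 fold changes (points) and 95% confidence intervals (lines) of the 7 genes in 4 comparisons of ages, from all 20 libraries (black) and without 2-month replicate 1 (red). The intervals of Aldh3a1 include 0 in all 4 panels, and Aldh2 lies farther above 0 in each comparison with the 2-month group when that library is left out.

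The normalized count of Aldh3a1 was 75259, 110941, 80208, 83469 and 62389 in the 2-month libraries. It was 94196, 74614, 76259, 85844 and 102782 at 12 months, 104033, 82029, 88914, 93289 and 88830 at 18 months and 93318, 91700, 85279, 97838 and 105497 at 24 months. Every age overlapped the others, and the older means lay within the range of the young libraries. Compared with 2 months, Aldh3a1 was 1.06-fold at 12 months (95% confidence interval 0.878 to 1.29, limma adjusted p = 0.908), 1.13-fold at 18 months (0.929 to 1.36, adjusted p = 0.902) and 1.17-fold at 24 months (0.964 to 1.41, adjusted p = 0.617). No difference was detected, and the interval at 24 months leaves room for a change from slightly lower to 1.41-fold higher. The coefficient of variation over the 5 libraries was 21.6% at 2 months, 13.8% at 12 months, 8.88% at 18 months and 7.94% at 24 months, given here as a description. Within ages the SD of Aldh3a1 was 0.199 on the log2 scale, where 105 genes of like abundance had a median of 0.200.

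**Figure D3:**
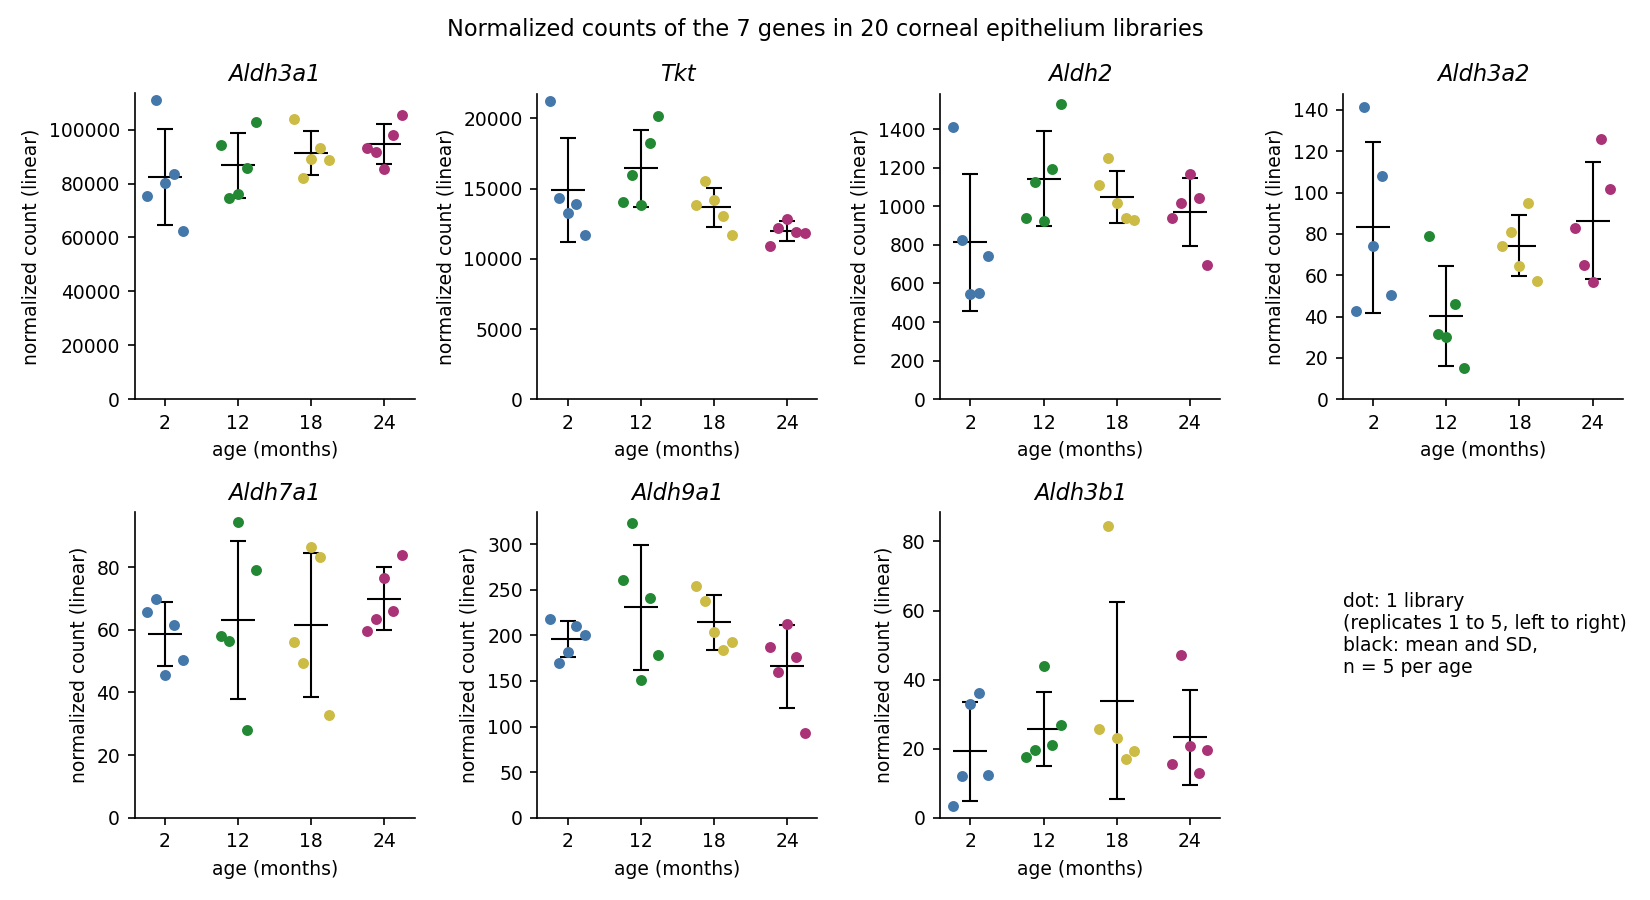
Normalized count (linear axis from 0) of each of the 7 genes in the 20 libraries by age in months; each dot is 1 library, with replicates 1 to 5 from left to right, and black lines give the mean and SD (n = 5). For Tkt all 5 of the 24-month dots lie below all 5 of the 12-month dots, and 2-month replicate 1 is the highest dot of its age for Tkt and for Aldh2.

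Tkt had a normalized count of 21260, 14325, 13276, 13919 and 11733 in the 2-month libraries and of 14052, 15951, 13828, 18233 and 20173 in the 12-month libraries. The counts were 13857, 15522, 14198, 13067 and 11732 at 18 months and 10927, 12230, 12872, 11941 and 11853 at 24 months. The 24-month libraries (mean 11965 ± 704, n = 5) were all below the 12-month libraries (16447 ± 2735), a pattern that 197 of the tested genes showed, or 1.75% of all. The log2 fold change from 12 to 24 months was -0.45 (95% confidence interval -0.71 to -0.18) with a limma adjusted p of 0.130, and it was not called. Without 2-month replicate 1, which is in neither group but enters the shared estimate of the spread, it was called at 0.734-fold (0.633 to 0.852, adjusted p = 0.0419), and 0.744% of all genes were called in that fit. Without 12-month replicate 5, the library with the most Tkt reads for its size at that age, the adjusted p was 0.321. Against the young group, Tkt differed by a log2 fold change of 0.16 (-0.11 to 0.42, adjusted p = 0.783) at 12 months, -0.10 (-0.37 to 0.17, adjusted p = 0.960) at 18 months and -0.29 (-0.55 to -0.02, adjusted p = 0.448) at 24 months. Without 2-month replicate 1 these values were 0.29 (0.07 to 0.52, limma adjusted p = 0.227), 0.04 (-0.19 to 0.26) and -0.15 (-0.38 to 0.08), so the sign at 18 months turned and the interval at 24 months came to include 0.

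Aldh2, the mitochondrial enzyme that oxidizes acetaldehyde and lipid aldehydes, had a normalized count of 1411, 825, 544, 550 and 744 in the 2-month libraries. The counts were 938, 1125, 924, 1193 and 1530 at 12 months, 1110, 1248, 1016, 937 and 929 at 18 months and 937, 1015, 1169, 1043 and 696 at 24 months. Replicate 1 of the 2-month group was above all but 1 of the 15 older libraries. The other young libraries, at 825 or less, were below every older library other than 24-month replicate 5 (696). With all 20 libraries Aldh2 was 1.47-fold at 12 months (95% confidence interval 1.11 to 1.94, limma adjusted p = 0.290), 1.36-fold at 18 months (1.03 to 1.80, adjusted p = 0.60) and 1.25-fold at 24 months (0.952 to 1.65, adjusted p = 0.609), none of them called. Without that library it was called at 12 months (1.71-fold, 1.36 to 2.15, adjusted p = 0.0125, with 0.85% of all genes called) and at 18 months (1.59-fold, 1.26 to 2.00, adjusted p = 0.0465, with 0.611% of all), but not at 24 months (1.46-fold, 1.16 to 1.84, adjusted p = 0.161, with 0.567% of all). For all older ages together the change was 1.36-fold (1.09 to 1.70, adjusted p = 0.288) with all libraries and 1.59-fold (1.30 to 1.93, adjusted p = 0.00975, with 0.815% of all genes called) without it. The test for any difference among the ages behaved likewise (adjusted p = 0.431 with all libraries and 0.0347 without it, with 0.992% of all genes called). Within ages the SD of Aldh2 was 0.359 on the log2 scale, and 200 genes of like abundance had a median of 0.208.

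Aldh3a2 encodes the fatty aldehyde dehydrogenase of the endoplasmic reticulum, whose loss in humans causes Sjögren-Larsson syndrome. Its normalized count was 42.8, 142, 74.0, 108 and 50.3 at 2 months and 79.0, 31.6, 30.0, 46.1 and 15.3 at 12 months. It was 74.4, 80.9, 64.3, 95 and 57.1 at 18 months and 82.9, 65.1, 56.8, 126 and 102 at 24 months. The 12-month group was the low one, with 3 of its 5 libraries below every young library, but replicate 1 of that age was as high as the other groups. The log2 fold change was -1.08 (95% confidence interval -1.84 to -0.32, limma adjusted p = 0.277) at 12 against 2 months and 1.21 (0.45 to 1.98, adjusted p = 0.137) at 24 against 12 months. The latter adjusted p was 0.0515 to 0.368 when each library was left out in turn, so Aldh3a2 was called in none of these fits. These values rest on 12 to 189 reads per library.

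Aldh9a1 converts gamma-aminobutyraldehyde and takes part in carnitine synthesis. Its normalized count was 170 to 218 at 2 months, 151 to 324 at 12 months, 184 to 254 at 18 months and 93.2 to 213 at 24 months. The lowest value, 24-month replicate 5, lay apart from the other 24-month libraries, which began at 159. The log2 fold change was -0.47 (95% confidence interval -0.91 to -0.03, limma adjusted p = 0.305) at 24 against 12 months and -0.29 (-0.73 to 0.15, adjusted p = 0.707) at 24 against 2 months. Without 24-month replicate 5 these were -0.28 and -0.09 (limma adjusted p = 0.601 and 0.932). Aldh7a1, the antiquitin of lysine breakdown at chr18:56524722-56572991, had a mean normalized count of 58.6 ± 10.2, 63.2 ± 25.1, 61.6 ± 22.9 and 69.9 ± 10.03 at the 4 ages, and its log2 fold changes against 2 months were 0.02 (-0.63 to 0.67), 0.00 (-0.65 to 0.66) and 0.26 (-0.39 to 0.91), with limma adjusted p-values of 0.996, 0.998 and 0.839.

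Aldh3b1, an ALDH3 enzyme active on medium and long chain aldehydes, was the least abundant of the 7, with 3 to 72 reads per library. Its normalized count was 3.29, 12.0, 32.9, 36 and 12.3 at 2 months and 17.5 to 43.9 at 12 months. At 18 months replicate 2 (84.4) stood above the other libraries (17.0 to 25.6), as did replicate 2 at 24 months (47.2, others 13.1 to 20.8). Its log2 fold change at 18 against 2 months was 0.89 with a confidence interval of -0.26 to 2.04 (limma adjusted p = 0.833). It was 0.42 (-0.67 to 1.51) without 2-month replicate 1, which had 3 reads, and 0.49 without 18-month replicate 2. The interval from all libraries leaves both no change and a change of 4.10-fold possible at this depth.

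Whether both crystallins varied together between animals was examined with the deviations of the log2 values from the mean of each age over the 20 libraries. For Aldh3a1 and Tkt, Pearson's r was 0.157 (permutation p = 0.632, adjusted over 5 relations 0.921) and Spearman's rho 0.144 (permutation p = 0.592, adjusted 0.805). Without 2-month replicates 2 and 5, the farthest in Aldh3a1, r was 0.00909. It was -0.07 without 2-month replicate 5 and 0.368 without 2-month replicate 1, so no joint variation was detected. For Aldh3a1 with Krt12, the corneal keratin, r was -0.109 and rho -0.278 (permutation p = 0.736 and 0.311), with r at -0.348 without 2-month replicates 2 and 5. With the summed keratocyte markers r was 0.255 and rho 0.220 (permutation p = 0.330 and 0.386), and r was 0.201 without the same libraries. For Tkt with Krt12, r was -0.333 and rho -0.09 (permutation p = 0.279 and 0.730), and r turned to 0.305 without 2-month replicate 1 and 12-month replicate 5. For Tkt with the keratocyte sum, r was -0.01 and rho -0.06 (permutation p = 0.962 and 0.805), and r was -0.108 without those libraries. Adjusted over the 5 relations, these permutation p-values were between 0.805 and 0.962.

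**Figure D4:**
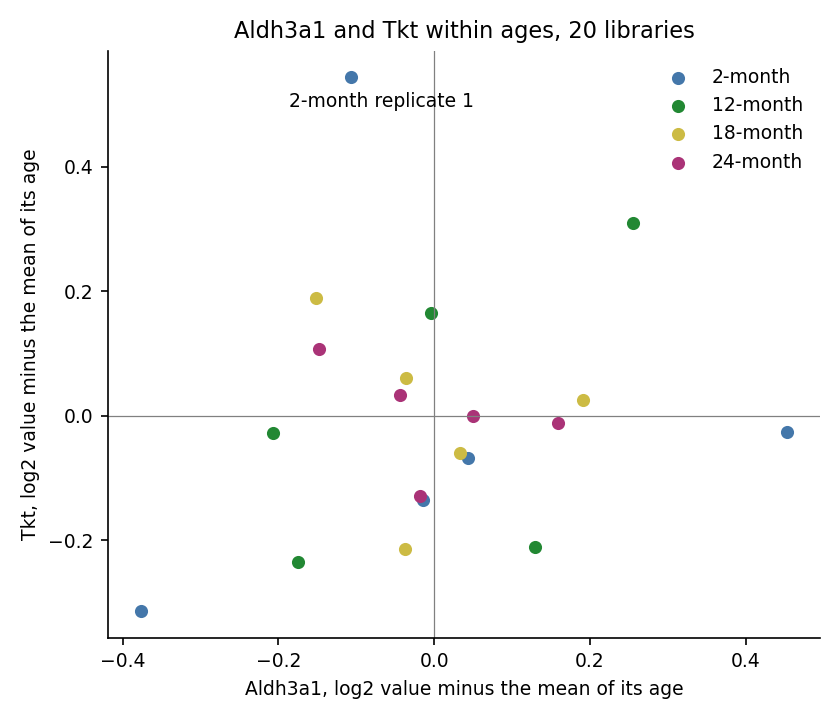
Tkt (y axis) against Aldh3a1 (x axis) in the 20 libraries, both as the log2 value minus the mean of the age; each dot is 1 library, colored by age. The dots form no line (r = 0.157), and 2-month replicate 1 lies highest for Tkt with Aldh3a1 below its mean.

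The genes most like each crystallin were picked from all tested genes by their r over the 20 libraries, which share depth and age. They are given as a description, and whether they differ between the crystallins was not tested. Those with the highest Pearson's r with Aldh3a1 were Pcbp2 (0.756), Mpp1 (0.749), Fzd1 (0.743), Gmcl1 (0.737) and Tmem265 (0.721). For Tkt they were Rps20, a ribosomal protein (0.914), Asf1a, a histone chaperone (0.902), Zfp326 (0.885), the myristoyltransferase Nmt1 (0.884) and Psmc1, a proteasome subunit (0.883). Of the other 6 genes, Aldh2 was the most like Tkt (r = 0.580, and 0.798 after the age means were removed). In the order of the tested genes by r with Tkt, Aldh2 was number 743. Tkt and Aldh2 both had their highest value of the 2-month group in replicate 1. The most like Aldh3a1 was Aldh3a2 (0.372), which was number 1118 in the order for Aldh3a1.

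Other enzymes of the same families were read from fixed lists. Of 15 further aldehyde dehydrogenases 9 were tested, and 1, Aldh1a1, was called, while 0 were called lower. Aldh1a1 oxidizes retinaldehyde to retinoic acid and is a corneal crystallin in other mammals. Its normalized count was 953, 1150, 1005, 1477 and 1513 at 2 months, and the means at the 4 ages were 1220 ± 262, 1817 ± 384, 1930 ± 287 and 1919 ± 271 (SD, n = 5). The 18-month libraries lay between 1668 and 2387 and the 24-month libraries between 1594 and 2302. Aldh1a1 was 1.60-fold at 18 months (95% confidence interval 1.29 to 1.98, limma adjusted p = 0.0209) and 1.59-fold at 24 months (1.28 to 1.97, adjusted p = 0.0232), and was not called at 12 months (1.49-fold, adjusted p = 0.0851). For all older ages together it was 1.56-fold (1.31 to 1.85, limma adjusted p = 0.00316) and was called in 20 of 20 fits with 1 library left out. It was called in 15 of 20 such fits at 18 months, the exceptions being those without 2-month replicates 1, 2 or 3 or 18-month replicates 2 or 4 (limma adjusted p up to 0.0927). At 24 months it was called in 14 of 20, the exceptions being those without 2-month replicates 1, 2 or 3 or 24-month replicates 2, 3 or 5 (limma adjusted p up to 0.0789). The differences between Aldh1a1 and the 7 genes were not tested. The other 8 were not called, and Aldh1a3, a second retinaldehyde dehydrogenase, was 0.751-fold in the older libraries (0.607 to 0.928, adjusted p = 0.297). The median log2 fold change of the 9 genes was -0.22, -0.22 and -0.15 at 12, 18 and 24 months. Aldh1a2, Aldh1b1, Aldh1l2, Aldh3b3, Aldh8a1 and Aldh18a1 were below the minimum.

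**Figure D5:**
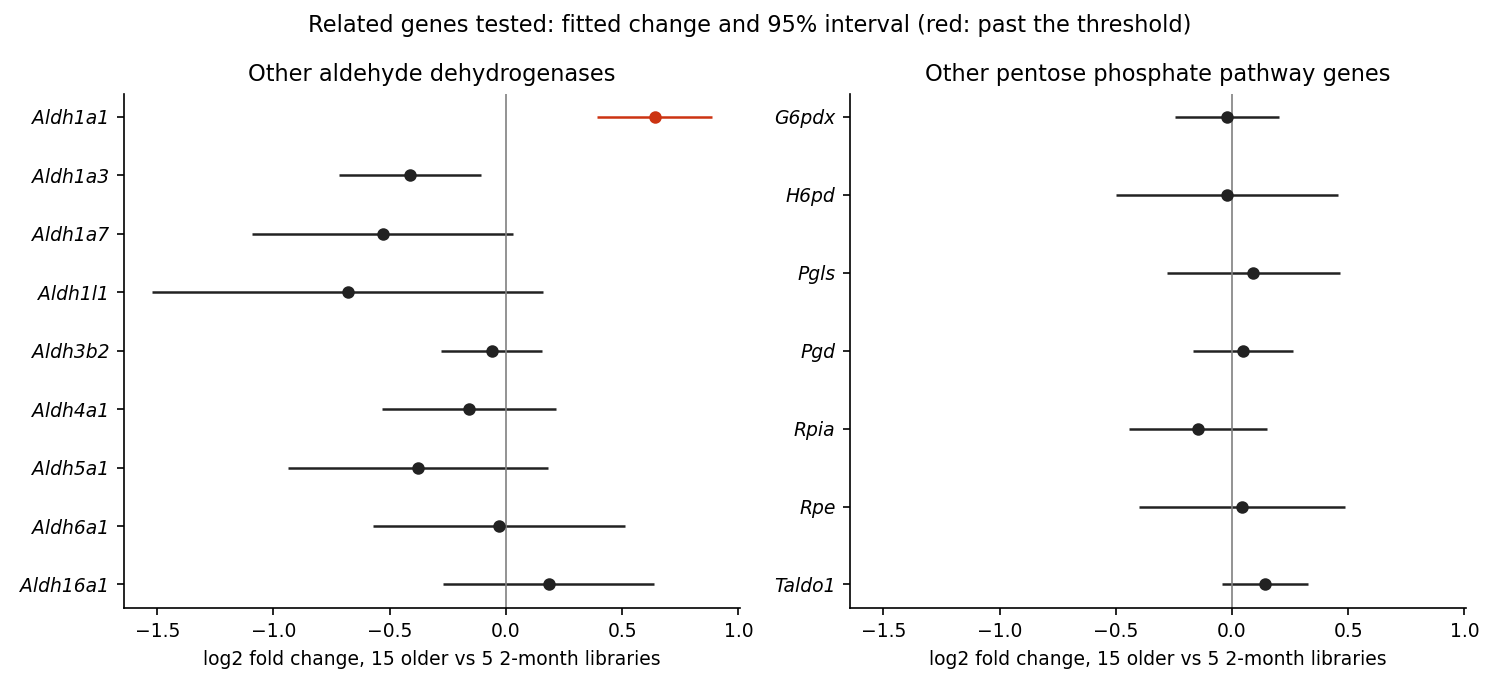
Fitted log2 fold changes (points) and 95% confidence intervals (lines) of the 15 older against the 5 young libraries for the 9 other aldehyde dehydrogenases (left) and the 7 other pentose phosphate pathway genes (right) that were tested; red marks a gene past the threshold. Aldh1a1 (1.56-fold) is the red point, and the intervals of the 7 pathway genes include 0.

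Tkt works with the other enzymes of the pentose phosphate pathway, of which 7 of 9 listed were tested and 0 were called between any ages. Transaldolase (Taldo1), the partner of transketolase in the non-oxidative branch, had a normalized count of 6259 ± 871, 6943 ± 943, 7061 ± 631 and 6669 ± 560 (SD, n = 5), and was 1.11-fold in the older libraries (95% confidence interval 0.972 to 1.26, limma adjusted p = 0.806). G6pdx, the entry enzyme of the oxidative branch, was 0.985-fold (0.844 to 1.15) and the next dehydrogenase, Pgd, 1.03-fold (0.891 to 1.2). The transketolase relatives were hardly read: Tktl1 had 0 reads in all 20 libraries, which allows up to 3 reads in each for counting error alone, and Tktl2 had reads in 1 library.

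Of 5 enzymes and proteins that serve as corneal crystallins in other species, 4 were tested, and Aldh1a1 was the 1 called. Isocitrate dehydrogenase Idh1 was 1.39-fold at 24 against 2 months (95% confidence interval 0.966 to 2.00, limma adjusted p = 0.563) and gelsolin (Gsn) 1.18-fold (0.932 to 1.51, adjusted p = 0.671). The counts of Ppia and Eno1 are uncertain, because 81.2% and 62.0% of their 3′ stretches of 75 bases also occur in other genes. Of 16 lens crystallins, 10 had no read in any library and 3 were tested with 0 called. The small heat shock protein Cryab was the one with many reads, with a normalized count of 1854 ± 766, 2321 ± 657, 2111 ± 157 and 2170 ± 84.2 (SD, n = 5) at the 4 ages, and was 1.27-fold in the older libraries (0.992 to 1.63, adjusted p = 0.650).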

How the data were processed

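RNA from corneal epithelium was primed with oligo-dT, made into Lexogen libraries and sequenced as single reads of 75 bases. Per their methods and the labels, the authors used cutadapt for trimming, FastQC for quality, STAR with GRCm38 for alignment, HTSeq for counts per gene and the relative log expression of DESeq2 for normalization; versions, gene annotation and strand setting are not given in the sources used here. The deposited log2 values are the log2 of the normalized count plus 1. All of them gave whole reads (tolerance 0.01) on dividing by the value of 1 read, and shares and depth come from these reads. The authors' fold changes, p-values and pathway results in the other deposited tables were not used.

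Genes whose normalized count averaged 10 or more were fitted with limma 3.58.1 (R 4.3.3; trend, 4 ages in 1 fit, or older against young in a second), with Benjamini-Hochberg adjustment over all tested genes; a fold change is on the log2(count + 1) scale and understates that of low genes. The fit was tested on simulated counts. Shares were compared with exact permutation tests (scipy 1.17.1), correlations with 100000 permutations within ages. Confidence intervals come from the spread between libraries, each 1 animal, whereas floors on reads cover counting error only. Coding stretches and 3′ ends came from GENCODE vM21 transcripts, gene spans from RefSeq, both on GRCm38; protein sequences are not printed. The stretches were found with the active-site cysteine pattern of the family on the translated coding sequence, with 1 match per gene.

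The 7 genes and the lists were chosen with earlier results of these data known. Named were all 7 genes, the genes of the lists that were called, the most abundant or needed for a sentence, and the 5 genes most like each crystallin. Alternatives were other scalings, voom, filters, pseudocounts, the replicate number as a block, fits of the ages compared alone and leaving out each library. Leaving out Rn45s, voom with the deposited size factors, the Tkt share without 2-month replicate 1 and the marker counts with 1 library left out were chosen after seeing the data.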

Additional observations from a re-analysis of the deposited data

Results flagged for a closer look

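Of 28 sets of 5 libraries (7 genes at 4 ages), 3 held a library far from the others by Dixon's criterion, which chance alone meets in about 1 of 20 such sets. Tkt had a normalized count of 21260 in 2-month replicate 1, where the other young libraries lay between 11733 and 14325, and this is the library with the highest Rn45s share (23.4%). Aldh3b1 was at 84.4 in 18-month replicate 2, with the other libraries of that age between 17.0 and 25.6. At 24 months Aldh3b1 was at 47.2 in replicate 2, with the others between 13.1 and 20.8.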

How the results depend on the processing

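The count of called genes among the 7 was 0 in all comparisons with 2 months, at 24 against 12 months and for any difference, under each of up to 12 settings that left out no library. With 1 library left out it ranged from 0 to 1 at 12 and 18 months, at 24 against 12 months, for all older ages and for any difference, and was 0 at 24 months; each 1 came without 2-month replicate 1 (Aldh2, or Tkt at 24 against 12 months). Of 35 log2 fold changes, 26 kept their direction in every setting. Aldh7a1 at 12 months turned to -0.0045 with scaling to reads without the 10 most abundant genes, -0.0056 without Rn45s, -0.0225 with voom and -0.0133 with voom and the deposited size factors, and at 18 months to -0.0022 with total reads and -0.0031 without Rn45s. Leaving out each library turned the sign of Aldh3a1 at 12 months (-0.0063 to 0.20), Aldh7a1 at 12 months (-0.15 to 0.28), at 18 months (-0.14 to 0.21) and at 24 against 12 months (-0.0198 to 0.41), Tkt at 18 months (-0.18 to 0.0367) and for all older ages (-0.16 to 0.0594), Aldh3a2 at 18 months (-0.25 to 0.18) and 24 months (-0.0665 to 0.36), and Aldh9a1 for all older ages (-0.0424 to 0.0851); the cause was not tested. Same-numbered libraries did not deviate together (30 pairs, r -0.303 to 0.159), and with the replicate block 0 of the 7 genes were called in each comparison (Tkt at 24 against 12 months, adjusted p = 0.179). Aldh3b1, with 3 to 72 reads, was below the stricter minimum of 50. The counts of all genes called were 60, 76 and 88 at 12, 18 and 24 months and 102 for any difference. In the same order they fell to 29, 47, 54 and 52 with no filter on low values and to 38, 53, 69 and 72 with voom. They rose to 81, 85, 100 and 120 with a pseudocount of 10 and were 65, 76, 98 and 111 with quantile normalization. With only the ages compared, the count at 12 months was 39. With 1 library left out the counts ranged from 38 to 96, 61 to 81, 54 to 96 and 59 to 114. At 24 against 12 months the 22 calls became 0 with no filter, 35 with a minimum of 50, 10 with total reads or voom, 11 with the block or only the ages compared, and 0 to 84 with 1 library left out. Aldh1a1 was not called at 18 or 24 months with no filter, nor at 24 months with only the ages compared.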
